A study of Mus musculus with 8 samples.

Results

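The 10 genes described here encode proteins that join a cell to its neighbours or to the matrix: the catenins Jup and Ctnnb1, the cadherins Cdh1 and Cdh5, the immunoglobulin-type adhesion molecules Pecam1, F11r, Esam and Bcam, the syndecan Sdc1 and the axon-glia adhesion protein Cntnap1. They were found by gene symbol among the 54532 genes of the count table, and 10 of 10 were present. RNA of bone marrow-derived macrophages (BMDMs), which are macrophages grown from marrow with macrophage colony-stimulating factor (M-CSF), was sequenced after 6 days of differentiation. There were 4 libraries from wild-type (WT) mice and 4 from mice without gasdermin D (Gsdmd-/-), and no library was treated. The study's methods give female C57BL/6J mice of 6 to 8 weeks as the source of BMDMs. WT animals were bought from a supplier and Gsdmd-/- animals came as a gift and were kept at the study's university, so that genotype and colony cannot be told apart. The labels do not say whether the libraries of a genotype came from separate mice or cultures, and the p-values therefore measure only the spread between these libraries.

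Cadherins are transmembrane proteins that bind cadherins of the neighbouring cell in the presence of calcium, and catenins tie their cytoplasmic tails to the actin skeleton. Ctnnb1 (beta-catenin) is also the nuclear co-activator of Wnt signaling, and Jup (plakoglobin, or gamma-catenin) is its close relative, found in adherens junctions and desmosomes. Macrophages build no continuous junctional belt of the epithelial kind, but they express several of these molecules. Cdh1 (E-cadherin) is a known marker of macrophages activated by IL-4, and F11r and Pecam1 are known for their part in the passage of leukocytes across endothelium.

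Levels are given as CPM, the counts of a gene scaled to a common library size with TMM factors. Total counts per library ran from 14935114 to 16794810, and 3 counts, taken as the floor of detection, equalled 0.177 to 0.199 CPM. Gsdmd averaged 75.3 ± 14.1 CPM over the WT libraries and 16.2 ± 1.56 CPM over the Gsdmd-/- libraries (SD, n = 4), and every Gsdmd-/- library lay below every WT library. All 8 macrophage markers looked at were detected in each library, with a summed level of 15444 to 23543 CPM in WT and 19499 to 23479 CPM in Gsdmd-/- libraries. The libraries WT 2 and WT 3 stood apart from the others. On the first principal component, which carried 43.6% of the variance, they lay at 45.4 and 38.8, against -25.9 to -7.19 for the other 6 libraries. Of the 12911 genes tested, 17.9% had WT 2 and WT 3 as their highest pair of libraries and 17.5% had them as their lowest pair. Results on the tested junction and adhesion genes are therefore given with and without WT 2 and WT 3.

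Of the 10 genes, 9 passed the filter on low counts and were tested, and Pecam1 was not. A gene was called at the cutoff the study used, namely a log2 fold change of 0.5 or more in either direction together with an unadjusted p under 0.05. At this cutoff 7 of the 9 were called in Gsdmd-/- against WT BMDMs: Jup, Cdh5, F11r, Esam, Bcam and Cntnap1 were lower and Sdc1 was higher. Over all tested genes 3.28% were called lower and 1.54% higher. After Benjamini-Hochberg adjustment over all tested genes only Jup of the 9 passed 0.05, a threshold that 0.349% of genes passed. The median log2 fold change of the 9 genes was -0.51, beside -0.0068 over all tested genes. In Jup, Bcam and Cntnap1 every Gsdmd-/- library lay below every WT library, a separation seen in 4.12% of tested genes, and in 0 of the 9 genes did every Gsdmd-/- library lie above every WT library, as in 3.48% of tested genes. With WT 2 and WT 3 left out, 4 of the 9 genes were called, Sdc1 as higher and Cdh1, Bcam and Cntnap1 as lower, and the shares of all genes called were 3.05% higher and 3.15% lower.

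The promoters of 4 called genes are shown as the sequence context of genes that were lower or higher in the same libraries, from 250 bases before to 50 bases after the transcription start. They were taken from RefSeq (GRCm38.p6), which matched 5 of the 10 genes, and they are written 5′ to 3′ on the strand of the gene. Capitals mark matches to any of 4 short motifs searched on both strands: TGGGAA (the core bound by RBPJ, the Notch effector), CTTTGA (the TCF and LEF core), GAGGAA (the PU.1 core) and CAGGTG (a Snail-type E-box).
Jup (chr11:100397741-100398040, minus strand): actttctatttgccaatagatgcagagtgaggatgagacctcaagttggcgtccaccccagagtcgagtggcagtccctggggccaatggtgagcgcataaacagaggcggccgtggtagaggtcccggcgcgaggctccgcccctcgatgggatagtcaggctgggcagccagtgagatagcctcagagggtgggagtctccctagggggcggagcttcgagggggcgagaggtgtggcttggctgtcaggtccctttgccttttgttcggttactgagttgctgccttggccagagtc
Bcam (chr7:19770483-19770782, minus strand): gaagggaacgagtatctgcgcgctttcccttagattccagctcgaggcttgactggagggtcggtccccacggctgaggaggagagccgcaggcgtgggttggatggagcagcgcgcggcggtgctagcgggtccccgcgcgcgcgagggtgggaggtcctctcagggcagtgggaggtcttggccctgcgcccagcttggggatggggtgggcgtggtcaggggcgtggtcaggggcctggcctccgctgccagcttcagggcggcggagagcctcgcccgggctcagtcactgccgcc
F11r (chr1:171437311-171437610, plus strand): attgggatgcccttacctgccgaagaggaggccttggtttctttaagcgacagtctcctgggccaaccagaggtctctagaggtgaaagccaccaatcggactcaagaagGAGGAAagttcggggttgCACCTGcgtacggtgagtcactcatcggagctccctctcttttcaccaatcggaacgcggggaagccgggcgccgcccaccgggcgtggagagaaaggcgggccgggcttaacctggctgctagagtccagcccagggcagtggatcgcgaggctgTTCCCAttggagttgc
Sdc1 (chr12:8771146-8771445, plus strand): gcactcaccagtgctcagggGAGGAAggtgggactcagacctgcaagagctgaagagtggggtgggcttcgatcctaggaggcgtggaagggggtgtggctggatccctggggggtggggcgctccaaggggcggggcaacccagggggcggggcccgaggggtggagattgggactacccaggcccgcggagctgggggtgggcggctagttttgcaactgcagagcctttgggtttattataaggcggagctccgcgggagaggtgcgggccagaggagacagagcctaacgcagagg

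No motif was found in the windows of Jup and Bcam. The F11r window held 1 match each to the RBPJ, PU.1 and E-box motifs, and the Sdc1 window held 1 match to the PU.1 motif. Among all 32851 promoter windows of the same length, TGGGAA was present in 25.6%, CTTTGA in 16%, GAGGAA in 28.3% and CAGGTG in 20.2%. The windows held 14 CpG in Jup, 27 in Bcam, 19 in F11r and 14 in Sdc1, against a median of 7 over all windows. GC content was 60.7% in Jup, 71% in Bcam, 60.3% in F11r and 66.3% in Sdc1, against a median of 52.7%.

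**Figure D1:**
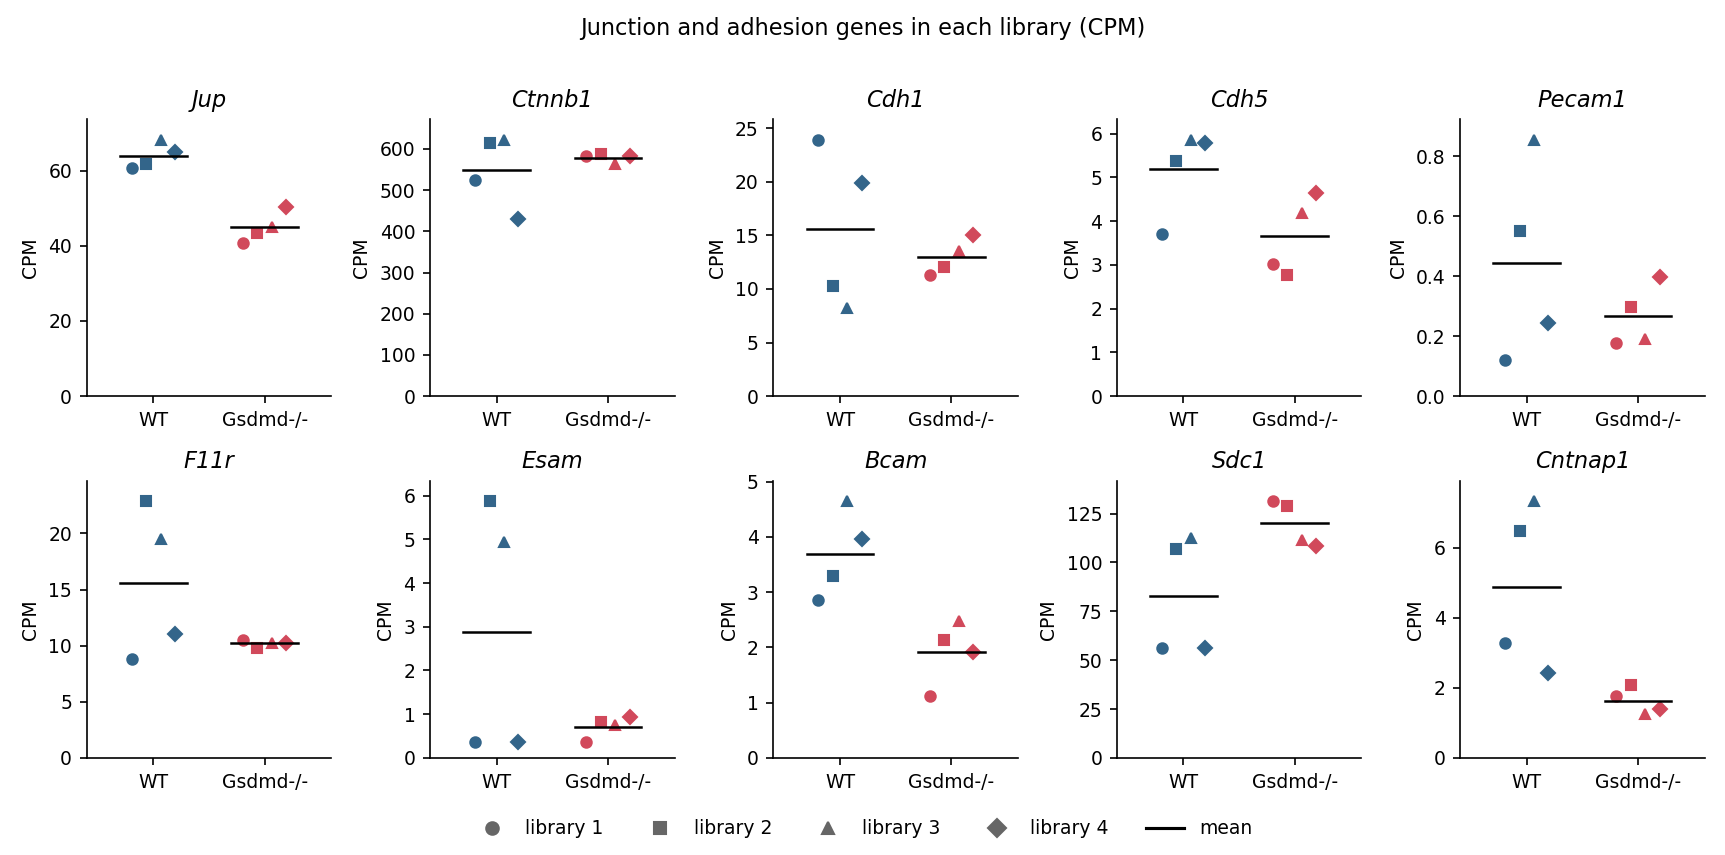
Level of each of the 10 genes in CPM (y axis, starting at 0) in the 4 WT and 4 Gsdmd-/- libraries; each marker is 1 library and the bar is the mean of 4. Jup, Bcam and Cntnap1 show no overlap between genotypes. WT 2 and WT 3 are the highest libraries of Ctnnb1, F11r, Esam, Pecam1 and Cntnap1 and the lowest of Cdh1.

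Jup was the catenin of the pair that passed the test. Jup (ENSMUSG00000001552, GRCm38 chr11:100368958-100397763, minus strand; all positions of genes are from this build) was at 60.8, 61.8, 68.3 and 65.0 CPM in WT 1 to WT 4 and at 40.9, 43.4, 45.0 and 50.4 CPM in Gsdmd-/- 1 to 4. The genotypes did not overlap. The mean was 64.0 ± 3.38 CPM for WT and 44.9 ± 4.04 CPM for Gsdmd-/- BMDMs (SD, n = 4), so that the Gsdmd-/- mean was 70.2% of the WT mean. Jup fell by 0.51 on the log2 scale (SE 0.088, adjusted p = 0.0467 by edgeR's quasi-likelihood test), and a two-sided exact permutation test of CPM gave p = 0.0286, the smallest that 4 against 4 libraries allow. Without WT 2 and WT 3 the log2 fold change was -0.49 (edgeR adjusted p = 0.0656), just short of both the fold cutoff and the adjusted threshold. The edgeR adjusted p was close to its threshold, and with each library left out in turn it ran from 0.0502 without WT 4 to 0.233 without Gsdmd-/- 1, while the log2 fold change stayed between -0.57 and -0.47 and was under the fold cutoff without WT 3, Gsdmd-/- 1 or Gsdmd-/- 2. With all libraries the adjusted p was 5.0e-05 with DESeq2, 8.0e-04 with the exact test, 0.0489 with limma voom and 0.0068 with sample quality weights. It was under 0.05 in 8 of 18 alternative settings.

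Ctnnb1 was the most abundant of the 10 genes and did not pass the test. Ctnnb1 (ENSMUSG00000006932, chr9:120929216-120960507, plus strand) was at 525, 614, 623 and 431 CPM in WT 1 to WT 4 and at 583, 588, 564 and 582 CPM in Gsdmd-/- 1 to 4. WT 2 and WT 3 were its highest libraries and WT 1 and WT 4 its lowest, with all 4 Gsdmd-/- libraries in between. The mean was 548 ± 89.9 CPM for WT and 579 ± 10.5 CPM for Gsdmd-/- BMDMs (SD, n = 4). The difference was 0.08 on the log2 scale (SE 0.116, edgeR adjusted p = 0.8288), and without WT 2 and WT 3 it was 0.27 (edgeR adjusted p = 0.281). It was -0.018 without WT 4 and -0.03 with limma's sample quality weights, so no direction is given. The antisense gene Ulk4 covers 14.6% of the exon length of Ctnnb1, but was at 0.825 to 1.83 CPM. Jup and Ctnnb1 bind the same region of the cadherin tail, and the share of Jup in the sum of both, per kilobase of exon, averaged 8.76 ± 1.46% for WT against 5.89 ± 0.514% for Gsdmd-/- libraries (SD, n = 4, two-sided exact permutation p = 0.0286). It was 8.54%, 7.51%, 8.13% and 10.85% in WT 1 to WT 4, above each of the Gsdmd-/- values of 5.35%, 5.62%, 6.04% and 6.53%.

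The cadherins did not pass the adjusted threshold, and the 4 WT libraries differed more in Cdh1 than the genotypes did. Cdh1 (ENSMUSG00000000303, chr8:106603351-106670246, plus strand), the epithelial cadherin, was at 23.9, 10.3, 8.24 and 19.8 CPM in WT 1 to WT 4 and at 11.3, 12.01, 13.5 and 14.99 CPM in Gsdmd-/- 1 to 4. WT 1 and WT 4 were the highest and WT 2 and WT 3 the lowest of the 8 libraries. The mean was 15.6 ± 7.52 CPM for WT and 12.9 ± 1.66 CPM for Gsdmd-/- BMDMs (SD, n = 4), with a log2 fold change of -0.27 (SE 0.300, edgeR adjusted p = 0.769). Without WT 2 and WT 3 the log2 fold change was -0.76 (SE 0.143) with an edgeR adjusted p of 0.0416, whereas it was 0.019 without WT 1 and 0.29 with sample quality weights. The call and the sign of Cdh1 thus rest on which WT libraries are used. Of 10 other epithelial markers, Krt5, Krt14 and Elf3 were at 0 and 6 more, including Epcam and Krt8, never exceeded 3 counts. The remaining marker, Cldn7, had 4, 8, 4 and 7 counts in WT 1 to WT 4 and 2, 2, 3 and 0 in Gsdmd-/- 1 to 4. Cldn7 did not pass the filter on low counts. The summed level of the 10 markers was 0.243 to 0.672 CPM in WT and 0.118 to 0.355 CPM in Gsdmd-/- libraries.

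Cdh5 (ENSMUSG00000031871, chr8:104101625-104144511, plus strand), the vascular endothelial cadherin, was at 3.71, 5.38, 5.86 and 5.78 CPM in WT 1 to WT 4. It was at 3.02, 2.78, 4.19 and 4.64 CPM in Gsdmd-/- 1 to 4. WT 1 lay within the Gsdmd-/- range and the other 3 WT libraries lay above it. The mean was 5.18 ± 1.00 CPM for WT and 3.66 ± 0.900 CPM for Gsdmd-/- BMDMs (SD, n = 4, two-sided exact permutation p = 0.0857). The log2 fold change was -0.51 (SE 0.223, edgeR adjusted p = 0.402), at the edge of the cutoff. Leaving out WT 1, Gsdmd-/- 3 or Gsdmd-/- 4 kept the call, leaving out any of the other 5 libraries ended it, and its log2 fold change was -0.38 (edgeR unadjusted p = 0.182) without WT 2 and WT 3. In bulk RNA of this kind, fewer cells of a type and less RNA per cell cannot be told apart.

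Among the immunoglobulin-type molecules, 3 of 3 tested genes were called lower, beside 3.28% of all tested genes, and 1 of the 3, Bcam, stayed called without WT 2 and WT 3. Bcam (ENSMUSG00000002980, chr7:19756131-19771016, minus strand), the Lutheran glycoprotein that binds laminin, was at 2.86, 3.30, 4.64 and 3.96 CPM in WT 1 to WT 4 and at 1.13, 2.13, 2.47 and 1.92 CPM in Gsdmd-/- 1 to 4. The genotypes did not overlap, and WT 3 and WT 4, not WT 2 and WT 3, were the highest pair. The mean was 3.69 ± 0.778 CPM for WT and 1.91 ± 0.572 CPM for Gsdmd-/- BMDMs (SD, n = 4), or 51.9% of WT. On the log2 scale the difference was -0.95 (SE 0.265, edgeR adjusted p = 0.211), and Bcam was called at the cutoff in 18 of 18 alternative settings, with a log2 fold change of -0.84 without WT 2 and WT 3. Its adjusted p was 0.0499 with DESeq2, 0.0537 with the exact test and 0.216 with limma voom. Its counts were 47 to 76 in WT and 19 to 39 in Gsdmd-/- libraries.

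F11r (ENSMUSG00000038235, chr1:171437535-171464603, plus strand), junctional adhesion molecule A, was at 8.82, 22.9, 19.5 and 11.1 CPM in WT 1 to WT 4. In Gsdmd-/- 1 to 4 it was at 10.5, 9.82, 10.2 and 10.3 CPM. WT 2 and WT 3 were far above the other 6 libraries, and WT 1 was the lowest of all. The mean was 15.6 ± 6.68 CPM for WT and 10.2 ± 0.300 CPM for Gsdmd-/- BMDMs (SD, n = 4, two-sided exact permutation p = 0.314). The log2 fold change of -0.61 (SE 0.265, edgeR adjusted p = 0.398) became 0.04 (SE 0.135, edgeR adjusted p = 0.955) without WT 2 and WT 3. With single libraries left out, F11r stayed called without WT 1 or WT 4 and lost its call without any of the other 6 libraries.

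Esam (ENSMUSG00000001946, chr9:37528078-37538319, plus strand), an endothelial and platelet relative of F11r, was likewise highest in WT 2 and WT 3. It had 6, 96, 81 and 6 counts in WT 1 to WT 4 and 6, 14, 12 and 14 counts in Gsdmd-/- 1 to 4, or 0.365, 5.87, 4.95 and 0.365 CPM against 0.355, 0.828, 0.761 and 0.929 CPM. WT 1 and WT 4 lay below 3 of the 4 Gsdmd-/- libraries, and WT 2 and WT 3 above all of them. The mean was 2.89 ± 2.93 CPM for WT and 0.718 ± 0.252 CPM for Gsdmd-/- BMDMs (SD, n = 4, two-sided exact permutation p = 0.371). The log2 fold change of -2.001 (SE 0.839, edgeR adjusted p = 0.382) turned to 0.95 (SE 0.517, edgeR adjusted p = 0.499) without WT 2 and WT 3. As for F11r, the call was kept without WT 1 or WT 4 and lost without any of the other 6 libraries.

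Pecam1 (ENSMUSG00000020717, chr11:106654217-106750628, minus strand), the platelet and endothelial adhesion molecule, was near the floor. It had 2, 9, 14 and 4 counts in WT 1 to WT 4 and 3, 5, 3 and 6 counts in Gsdmd-/- 1 to 4, and 3 of these libraries were at or under 3 counts. The highest values were again those of WT 2 and WT 3. The mean was 0.443 ± 0.329 CPM for WT and 0.265 ± 0.103 CPM for Gsdmd-/- BMDMs (SD, n = 4). In the fit without a filter on low counts Pecam1 had a log2 fold change of -0.71 (SE 0.622, edgeR unadjusted p = 0.269), and no difference was detected. Of 13 endothelial markers other than Cdh5, Esam and Pecam1, Tek, Cldn5 and Sox17 were at 0 and Emcn, Ptprb, Erg and Robo4 never exceeded 3 counts. The 13 summed to 137 to 264 CPM in WT and 130 to 209 CPM in Gsdmd-/- libraries, nearly all from Vwf and Kdr. Vwf had WT 2 and WT 3 as its highest libraries, at 238 and 201 CPM against 81.2 to 131 CPM elsewhere, whereas Kdr had them as its lowest, at 23.6 and 21.1 CPM against 44.1 to 77.8 CPM. Tie1 of the endothelial and Pdgfra of the stromal list, named after their values were seen, had 31 and 30 and 34 and 26 counts in WT 2 and WT 3, and at most 10 and 11 counts in the other libraries. Some other members of these lists were not highest in WT 2 and WT 3. In WT 1 to WT 4, endothelial Egfl7 had 8, 2, 6 and 1 counts and stromal Lepr had 26, 13, 18 and 27. Stromal Col1a1 and Col1a2 had 18 and 15 counts in WT 4 and 0 in WT 1 to WT 3. Among the platelet markers Gp1bb and Gp6 were at 0, Gp9 never exceeded 3 counts, and the 8 genes summed to 17.7 to 37.2 CPM in WT and 20.0 to 23.8 CPM in Gsdmd-/- libraries. Members of this list differed in direction: Treml1 was at 6.35 and 5.98 CPM in WT 2 and WT 3 and at 2.13 to 2.78 CPM in the others, and Pf4, the most abundant, was lowest there, at 7.70 and 11.05 CPM against 11.9 to 28.1 CPM. Of 8 dendritic cell markers, which summed to 2228 to 2372 CPM in WT and 1674 to 2099 CPM in Gsdmd-/- libraries, Siglech was at 0 and Itgax gave nearly all of the sum, at 2206 to 2346 CPM in the WT and 1653 to 2080 CPM in the Gsdmd-/- libraries. Clec9a was at 49.1 and 45.3 CPM in WT 2 and WT 3 and at 14.5 to 18.3 CPM elsewhere, while Ccr7 was at 0 and 0.183 CPM in WT 2 and WT 3 and at 0.426 and 1.22 CPM in WT 1 and WT 4. The part of these markers in the levels of F11r, Esam and Pecam1 was not tested.

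Sdc1 was the one gene of the 10 called higher. Sdc1 (ENSMUSG00000020592, chr12:8771323-8793715, plus strand), a heparan sulfate proteoglycan that binds matrix and growth factors, was at 56.1, 107, 112 and 56.0 CPM in WT 1 to WT 4 and at 131, 129, 112 and 109 CPM in Gsdmd-/- 1 to 4. WT 1 and WT 4 were the lowest libraries by far, and WT 2 and WT 3 were close to Gsdmd-/- 3 and 4. The mean was 82.8 ± 31.0 CPM for WT and 120 ± 11.6 CPM for Gsdmd-/- BMDMs (SD, n = 4, two-sided exact permutation p = 0.0857). The log2 fold change was 0.54 (SE 0.228, edgeR adjusted p = 0.389), and without WT 2 and WT 3 it was 1.10 (SE 0.115, edgeR adjusted p = 0.00356). It was 0.39 without WT 1 and likewise 0.39 without WT 4, and the gene kept its call without WT 2 or WT 3 and lost it without any of the other 6 libraries. Of the 4 syndecans per kilobase of exon, Sdc1 made up 14.9%, 27.9%, 30.7% and 16.2% in WT 1 to WT 4 and 33.6%, 31.7%, 33.7% and 29.1% in Gsdmd-/- 1 to 4. Sdc3 held most of the remainder, averaging 71.0 ± 8.30% for WT against 60.9 ± 3.16% for Gsdmd-/- libraries (SD, n = 4, two-sided exact permutation p = 0.0571). Sdc1 is also a plasma cell marker. The 7 other plasma and B cell markers summed to 8.95 to 38.9 CPM in WT and 6.85 to 8.93 CPM in Gsdmd-/- libraries, with Ms4a1 never above 3 counts. Igkc was at 28.6 CPM in WT 4, which with WT 1 had the lowest Sdc1, and at 0 in WT 2 and WT 3. Ighm went the other way, at 8.98 and 8.73 CPM in WT 2 and WT 3 and at 0.464 to 1.54 CPM elsewhere, and was called lower (log2 fold change -2.53, edgeR adjusted p = 0.248). The part of these markers in the level of Sdc1 was not tested.

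**Figure D2:**
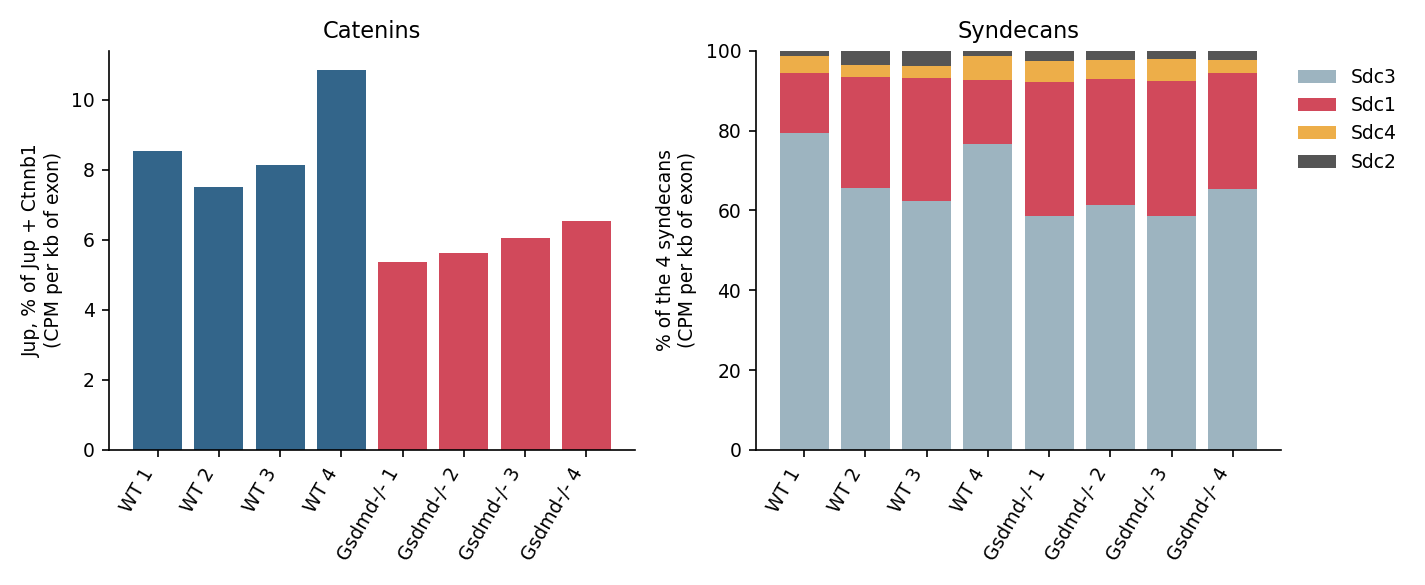
Left, share of Jup in the summed level of Jup and Ctnnb1 in each library (y axis, percent of CPM per kilobase of exon); right, share of each of the 4 syndecans (y axis, percent of CPM per kilobase of exon). The Jup share is 7.51% to 10.85% in WT and 5.35% to 6.53% in Gsdmd-/- libraries, and the Sdc1 share is lowest in WT 1 and WT 4.

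Cntnap1 (ENSMUSG00000017167, chr11:101170523-101190724, plus strand), known as Caspr for its role in the paranodal junction between axon and glia, was also lower in every Gsdmd-/- library than in every WT library. It was at 3.29, 6.48, 7.33 and 2.43 CPM in WT 1 to WT 4 and at 1.78, 2.07, 1.27 and 1.39 CPM in Gsdmd-/- 1 to 4. WT 2 and WT 3 were the highest, but WT 1 and WT 4 also lay above all Gsdmd-/- libraries. The mean was 4.88 ± 2.39 CPM for WT and 1.63 ± 0.366 CPM for Gsdmd-/- BMDMs (SD, n = 4), or 33.3% of WT. This gave a log2 fold change of -1.58 (SE 0.362, edgeR adjusted p = 0.118) and was -0.81 (SE 0.282, edgeR adjusted p = 0.241) without WT 2 and WT 3, and the gene was called in 18 of 18 alternative settings. With single libraries left out the edgeR adjusted p ran from 0.0390 without WT 4 to 0.362 without Gsdmd-/- 1 and was not under 0.05 in 7 of 8 fits. With all libraries it was 0.00353 with DESeq2, 0.00601 with the exact test, 0.24 with limma voom, 0.00678 with sample quality weights in limma voom and 0.0285 without a filter. The antisense gene Plekhh3 shares 3.97% of the exon length of Cntnap1 and averaged 6.45 ± 2.19 CPM for WT against 8.03 ± 1.54 CPM for Gsdmd-/- libraries (SD, n = 4). Its known partners were scarce: Cntn1 was at 0, Cntn2 never exceeded 3 counts, and the 6 axon-glia partners summed to 0.243 to 1.59 CPM in WT and 0.381 to 1.36 CPM in Gsdmd-/- libraries.

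**Figure D3:**
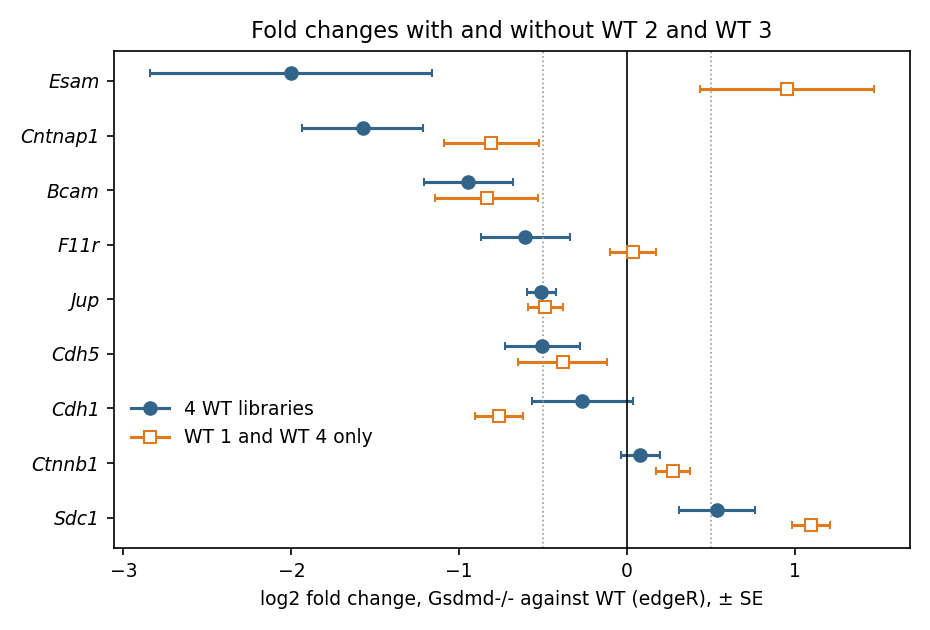
log2 fold change of Gsdmd-/- against WT (x axis, edgeR, bars are ± 1 SE) for the 9 tested genes, with all 4 WT libraries (filled circles) and with WT 1 and WT 4 alone (open squares); dotted lines mark the fold cutoff of 0.5. Jup and Bcam move by less than 1 SE, Esam and F11r move to the other side of 0, and Cdh1 and Sdc1 move away from 0.

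Levels between genes were compared as CPM per kilobase of exon. Ctnnb1 led with a mean of 105.58 in WT and 111.56 in Gsdmd-/- BMDMs, followed by Sdc1 with 21.7 and 31.5, Jup with 9.94 and 6.98, F11r with 5.84 and 3.84 and Cdh1 with 3.40 and 2.83. Cdh5, Bcam, Esam and Cntnap1 followed with 1.23, 1.15, 1.01 and 0.831 in WT and 0.870, 0.598, 0.251 and 0.277 in Gsdmd-/- BMDMs, and Pecam1 was last with 0.0711 and 0.0426. The ranges over the 8 libraries of Ctnnb1 and Sdc1 overlapped with no neighbour in this order. Those of Jup and F11r overlapped, as did those of F11r and Cdh1 and those of the 4 genes from Cdh5 to Cntnap1. Esam had the widest range among these 4, from 0.124 to 2.046, which also reached into the ranges of Cdh1 above and Pecam1 below.

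The wider junction and adhesion system was covered by 122 symbols in 11 lists, of which 120 were in the table and 57 were tested. At the cutoff 4 were higher and 3 were lower in Gsdmd-/- BMDMs, the median log2 fold change was -0.094, and 1 gene passed the adjusted threshold, beside the 1.54%, 3.28% and 0.349% of all tested genes. No gene was called among 6 tested linkers and other catenins, 3 desmosomal genes, 5 syndecans, glypicans and syntenins, 5 sheddases, 2 gap junction genes, 6 genes of the beta-catenin destruction complex, 1 other cadherin and 1 axon-glia partner. Of the 11 desmosomal genes, Dsg2 and Dsc3 were at 0 and Dsp and Pkp1 never exceeded 3 counts, whereas the plakophilins Pkp2 and Pkp4 made up most of a summed level of 98.8 to 172 CPM in WT and 110 to 122 CPM in Gsdmd-/- libraries. Pkp2 was at 99.2 and 106 CPM in WT 2 and WT 3 and at 27.8 to 51.1 CPM elsewhere. The calls came from 5 tested targets and factors of beta-catenin signaling, 12 tight junction genes and 11 other immunoglobulin-type molecules.

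In the beta-catenin list 3 of 5 tested genes were higher and 1 was lower, beside 1.54% and 3.28% of all tested genes. The remaining tested gene, Ccnd1, was not called. Ccnd1 averaged 52.0 ± 30.1 CPM over the WT libraries and 33.2 ± 3.70 CPM over the Gsdmd-/- libraries (SD, n = 4). Its log2 fold change was -0.65 (SE 0.376, edgeR adjusted p = 0.545), and WT 2 and WT 3 were its highest libraries at 80.5 and 73.8 CPM. Myc, a growth-promoting transcription factor and Wnt target, was at 35.8, 38.9, 37.7 and 33.7 CPM in WT 1 to WT 4 and at 51.8, 48.1, 54.7 and 53.3 CPM in Gsdmd-/- 1 to 4. No Gsdmd-/- library overlapped with the WT range. Myc rose by 0.51 on the log2 scale (SE 0.0827, edgeR adjusted p = 0.0362), and dropping single libraries gave adjusted p values between 0.0448 and 0.164, not under 0.05 in 7 of 8 fits, and log2 fold changes of 0.47 to 0.54, at the cutoff in 5 of 8 fits. Without WT 2 and WT 3 its log2 fold change was 0.58 (edgeR adjusted p = 0.0288). Znrf3, a ubiquitin ligase that removes Wnt receptors, averaged 5.76 ± 0.128 CPM over the WT libraries and 8.15 ± 0.251 CPM over the Gsdmd-/- libraries (SD, n = 4). Its values did not overlap between genotypes, and its log2 fold change of 0.50 (SE 0.115, edgeR adjusted p = 0.117) was 0.52 without WT 2 and WT 3. Rnf43, a ligase of the same family, had 22 counts over the WT and 60 over the Gsdmd-/- libraries, with a log2 fold change of 1.44 (SE 0.483, edgeR adjusted p = 0.286) that was 0.91 and no longer called without WT 2 and WT 3. Tcf7l2, a DNA-binding partner of beta-catenin, averaged 45.1 ± 12.9 CPM over the WT libraries and 30.5 ± 2.304 CPM over the Gsdmd-/- libraries (SD, n = 4). Its log2 fold change of -0.56 (SE 0.183, edgeR adjusted p = 0.272) was -0.17 without WT 2 and WT 3, the highest libraries of this gene at 55.7 and 56.2 CPM. Axin2, Lef1, Tcf7 and 4 more of the 15 listed genes never exceeded 3 counts in any library, and Lgr5 and Sp5 were at 0.

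Of the tight junction genes, Marveld2 (tricellulin, a protein of the corners where 3 cells meet) was higher and Tjp3 (the scaffold ZO-3) was lower. Marveld2 was at 4.38, 3.91, 2.87 and 5.17 CPM in WT 1 to WT 4 and at 10.6, 10.6, 7.17 and 5.77 CPM in Gsdmd-/- 1 to 4. The genotypes did not overlap, with a log2 fold change of 1.06 (SE 0.244, edgeR adjusted p = 0.117) that was 0.84 without WT 2 and WT 3. Tjp3 averaged 1.97 ± 0.504 CPM over the WT libraries and 0.944 ± 0.477 CPM over the Gsdmd-/- libraries (SD, n = 4), with a log2 fold change of -1.04 (SE 0.382, edgeR adjusted p = 0.323). Nectin1, an immunoglobulin-type molecule of adherens junctions, averaged 2.39 ± 0.787 CPM over the WT libraries and 1.15 ± 0.381 CPM over the Gsdmd-/- libraries (SD, n = 4). Its log2 fold change of -1.04 (SE 0.328, edgeR adjusted p = 0.26) was -0.58 without WT 2 and WT 3, and that of Tjp3 was then -0.78 (edgeR unadjusted p = 0.122), so that neither gene was called.

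**Figure D4:**
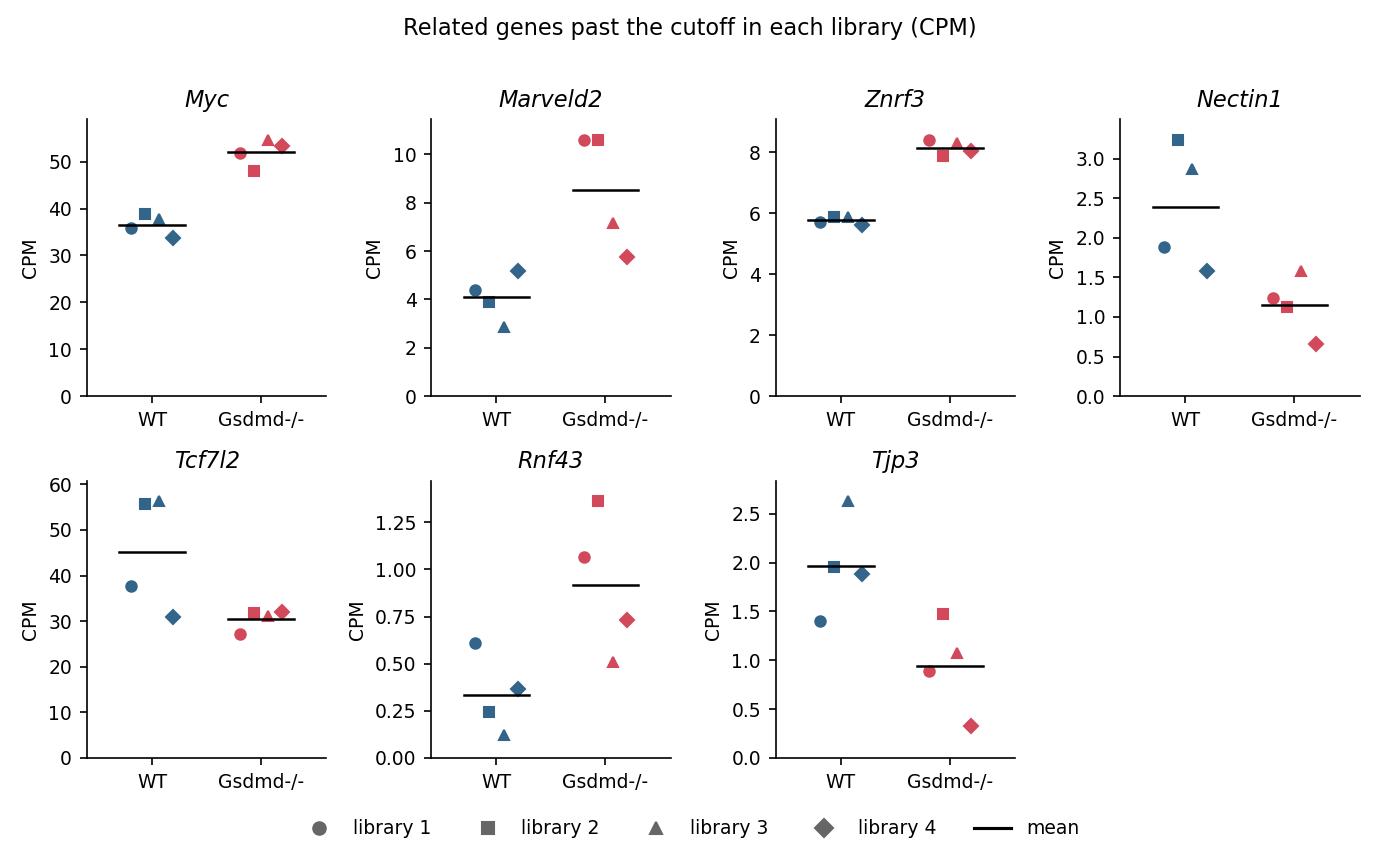
Level of the 7 related genes at the cutoff in CPM (y axis, starting at 0) in the 4 WT and 4 Gsdmd-/- libraries; each marker is 1 library and the bar is the mean of 4. Myc, Marveld2 and Znrf3 show no overlap between genotypes. WT 2 and WT 3 are the highest libraries of Nectin1, Tcf7l2 and Tjp3 and the lowest of Marveld2 and Rnf43.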

How the data were processed

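The deposited table held raw gene counts, made by the authors from TruSeq RNA libraries of 8 BMDM samples. The submitters' processing notes name the build mm10. The aligner, the counter, the gene annotation and the use of strand are not given in the sources used here. Positions and exon lengths came from GENCODE M21, which held 54495 of the 54532 gene identifiers, and promoters from RefSeq (GRCm38.p6).

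Counts were normalised by TMM, filtered with filterByExpr and tested with the quasi-likelihood test of edgeR 4.0.16 (R 4.3.3) on genotype alone, with Benjamini-Hochberg adjustment over 12911 genes. The study names edgeR and limma. Counts were also simulated for these genes. Recovered were 77.6% of 98 genes changed by 1 and 96.1% of 102 genes changed by 2 on the log2 scale. Of 186 calls, 12 were false. The recovered shares are over genes of all count levels together and were not split by the spread among the WT libraries. They do not show how often such changes would be found at low counts or where the WT libraries differ. Alternatives used limma 3.58.1 and DESeq2 1.42.0, 2 other normalisations, other filters, a block, single libraries left out, WT 1 and WT 4 alone and stricter thresholds.

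The genes and lists were chosen with earlier results of these data known. Named were all 10 genes, every related gene at the cutoff and defining markers of other cell types. The macrophage identity and 8 other cell types were looked at with marker lists, whose sums leave out the 10 genes themselves. 2 further markers chosen at first are not reported here and are in no list used. The neutrophil, erythroid and stromal lists summed to at most 6.91, 0.672 and 4.69 CPM in any library.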

Additional observations from a re-analysis of the deposited data

How the results depend on the processing

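Of 161 recomputed log2 fold changes of the 9 tested genes, 118 kept their sign and their side of the cutoff, 36 kept the sign and were no longer called, 1 became called and 6 changed sign. The sign changed for Cdh1 (0.29 with sample quality weights in limma voom, and -0.48 to 0.019 with single libraries left out, the last without WT 1), Ctnnb1 (-0.032 with these weights, and -0.018 to 0.15 with single libraries left out, the first without WT 4), F11r (0.036) and Esam (0.95), the last 2 with WT 1 and WT 4 alone. No sign changed under the other normalisations, DESeq2 or the exact test. The count of 7 called genes was 2 to 6 with single libraries left out (2 without Gsdmd-/- 1 or Gsdmd-/- 2, 3 without WT 3, and 4 without WT 2, Gsdmd-/- 3 or Gsdmd-/- 4), 4 with WT 1 and WT 4 alone, 2 with a log2 fold threshold of 1 and 1 once adjusted. Of the related genes the 4 higher calls became 2 with at least 10 counts in every library, 2 at the larger fold, 1 after adjustment, 5 with WT 1 and WT 4 alone and 2 to 4 with single libraries left out (2 without WT 4 or Gsdmd-/- 3). The 3 lower calls became 8 with sample quality weights, 7 without a filter, 1 with WT 1 and WT 4 alone and 1 to 6 with single libraries left out (1 without WT 3, 5 without WT 4, 6 without WT 1). After adjustment 0 lower calls were left with edgeR and likewise 0 with DESeq2, limma voom and the exact test, beside 9 at an unadjusted p under 0.05. The 45 genes past the adjusted threshold became 1792 with quality weights, 246 with the exact test, 292 with DESeq2, 109 without a filter, 161 with WT 1 and WT 4 alone and 14 to 84 with single libraries left out (14 without WT 3, Gsdmd-/- 1, Gsdmd-/- 2 or Gsdmd-/- 3, 21 without WT 2, 22 without Gsdmd-/- 4 and 84 without WT 4). The cause of these shifts was not tested.

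Libraries of the 2 genotypes share replicate numbers, but same-numbered libraries did not deviate together (correlations of -0.201 to 0.182), and 1 of 4 WT libraries was closest to its own number. With the replicate number as a block, 25 genes passed the adjusted threshold and 5 of the 9 genes were called. F11r (edgeR unadjusted p = 0.0683) and Esam (0.0615) lost their calls, and Jup stayed called but lost its adjusted significance (adjusted p = 0.119), as did Myc (0.149). Depth limits Pecam1 and Esam most, since both had fewer than 10 counts in several libraries.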

Other observations

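The values of 3 further genes of the same system, none of which passed the cutoff or the adjusted threshold, are given here and were chosen after they were seen. Sdcbp (syntenin, which binds the tails of syndecans) averaged 879 ± 39.0 CPM over the WT libraries and 1123 ± 71.6 CPM over the Gsdmd-/- libraries (SD, n = 4), without overlap between genotypes and with a log2 fold change of 0.35 (SE 0.0819, edgeR adjusted p = 0.123). Ctnna1 (alpha-catenin, the link from catenins to actin) averaged 207 ± 5.53 CPM over the WT libraries and 186 ± 3.45 CPM over the Gsdmd-/- libraries (SD, n = 4), also without overlap, with a log2 fold change of -0.15 (SE 0.0681, edgeR adjusted p = 0.405). The glypican Gpc1 averaged 266 ± 34.0 CPM over the WT libraries and 206 ± 20.1 CPM over the Gsdmd-/- libraries (SD, n = 4), with overlap between genotypes, WT 2 and WT 3 as its highest libraries and a log2 fold change of -0.37 (SE 0.113, edgeR adjusted p = 0.247).

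The spread among the WT libraries that was seen in Cdh1, F11r and Esam was present in macrophage genes as well. Fcgr1 was at 7.09 and 6.66 CPM in WT 2 and WT 3, at 36.2 and 40.7 CPM in WT 1 and WT 4 and at 17.8 to 26.9 CPM in Gsdmd-/- libraries. Mertk was at 250 and 212 CPM in WT 2 and WT 3, at 141 and 101 CPM in WT 1 and WT 4 and at 103 to 142 CPM in Gsdmd-/- libraries.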
